A study of Mus musculus with 4 samples.

Results

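The genes described here encode proteins of the sperm tail and of the head-tail junction. Outside the microtubule core, the tail structures are the outer dense fibres, the fibrous sheath, and the mitochondrial sheath and annulus of the midpiece. The tektins belong to the doublet microtubules of that core. The genes are 34 of the 21936 genes in the count table, chosen by name. Each was found by its mouse gene identifier in the annotation GENCODE vM21 on the genome build GRCm38. RNA was sequenced from 4 libraries of the testis of adult C57BL/6 mice, for which no mutation or treatment of the animals is named: 2 TSSK2-IP libraries, from immunoprecipitation (IP) with an antibody against TSSK2, and 2 control IgG-IP libraries, from IP with mouse IgG. Both groups came from germ cell suspensions that were cross-linked with paraformaldehyde, sonicated and separated by low-speed centrifugation, and the pellet served as input for both antibodies. The number of animals behind each library is not given in the sources used here. An unprecipitated input was not analysed here, so a level in an IP library cannot be told apart from the abundance of that mRNA in the pellet. Nothing in the labels says that the replicates came from separate animals, so p-values measure only the spread between these libraries, which may be technical. The comparison asks which mRNAs were found more, or less, with TSSK2 than with IgG.

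In the tail of a spermatozoon, outer dense fibres run along the axoneme and the fibrous sheath surrounds them in the principal piece, where it holds protein kinase A and glycolytic enzymes. In the midpiece, mitochondria are wound around the dense fibres, and the annulus, a ring of septins, marks the border between both pieces. These structures are built in spermatids, while transcription ceases, from mRNAs that are in part stored and translated later. TSSK2, a testis-specific serine kinase, is a component of the late chromatoid body (late-CB), a granule of RNA and protein in elongating spermatids.

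The libraries held between 3938922 and 9858941 counts, with the highest total in control IgG-IP replicate 1. Levels are given as normalized CPM, which is the count scaled to a common library size with edgeR's TMM factors, and 1 count was worth between 0.156 and 0.23 CPM. The 2 control libraries differed more from each other than the 2 TSSK2-IP libraries did: over 14693 genes, the SD of the log2 ratio between replicates was 1.18 in control IgG-IP and 0.53 in TSSK2-IP. With only 2 controls, this spread cannot show which of them is atypical. For each gene, the log2 fold change is also given below from a fit without control IgG-IP replicate 1. That choice does not mark replicate 1 as the faulty library. The mirror fit without control IgG-IP replicate 2 gave the members values from -2.42 to 0.78, with a median of -1.41. Without replicate 1 the members ranged from -0.60 to 0.70, with a median of -0.17. A log2 fold change is TSSK2-IP over control IgG-IP. Genes were called where that value reached 1 or -1 and the Benjamini-Hochberg adjusted p of edgeR's quasi-likelihood test did not exceed 0.05. With 2 libraries against 2, an exact permutation test cannot go below p = 0.333.

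None of the 33 genes tested was called higher or lower in TSSK2-IP by edgeR, and none had an unadjusted p under 0.05. With upper-quartile factors in place of TMM, edgeR also called 0, but 11 members had a lower value at an unadjusted p under 0.05 (8.84% of all genes). Over all 14722 genes tested, 0.693% were called higher and 0% lower, and at an unadjusted p under 0.05, 4.89% had a lower and 8.34% a higher value. DESeq2 also called 0 members (0.752% of the genes it tested were called higher and 0.0047% lower), while 14 of them had a lower value at an unadjusted p under 0.05 (5.65% of the genes it tested). The smallest adjusted p among the members was 0.378 (edgeR, for Slc26a8). The point values lay mostly on one side: 29 of 33 log2 fold changes were below 0, against 50.8% of all genes, and 14 were -1 or below, against 9.88%. The median of the members was -0.93, beside -0.02 over all genes. Both TSSK2-IP libraries lay below both control libraries for 22 members (21.6% of all genes), above both for 1 member, Odf2l (27.3% of all genes), and the groups overlapped for 10. The 34th gene, Odf3l2, had 2 and 1 counts in TSSK2-IP and 1 and 3 counts in control IgG-IP, at or below the limit of 3 counts that a count of 0 allows, and was not tested. This limit of 3 counts covers counting error only.

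**Figure D1:**
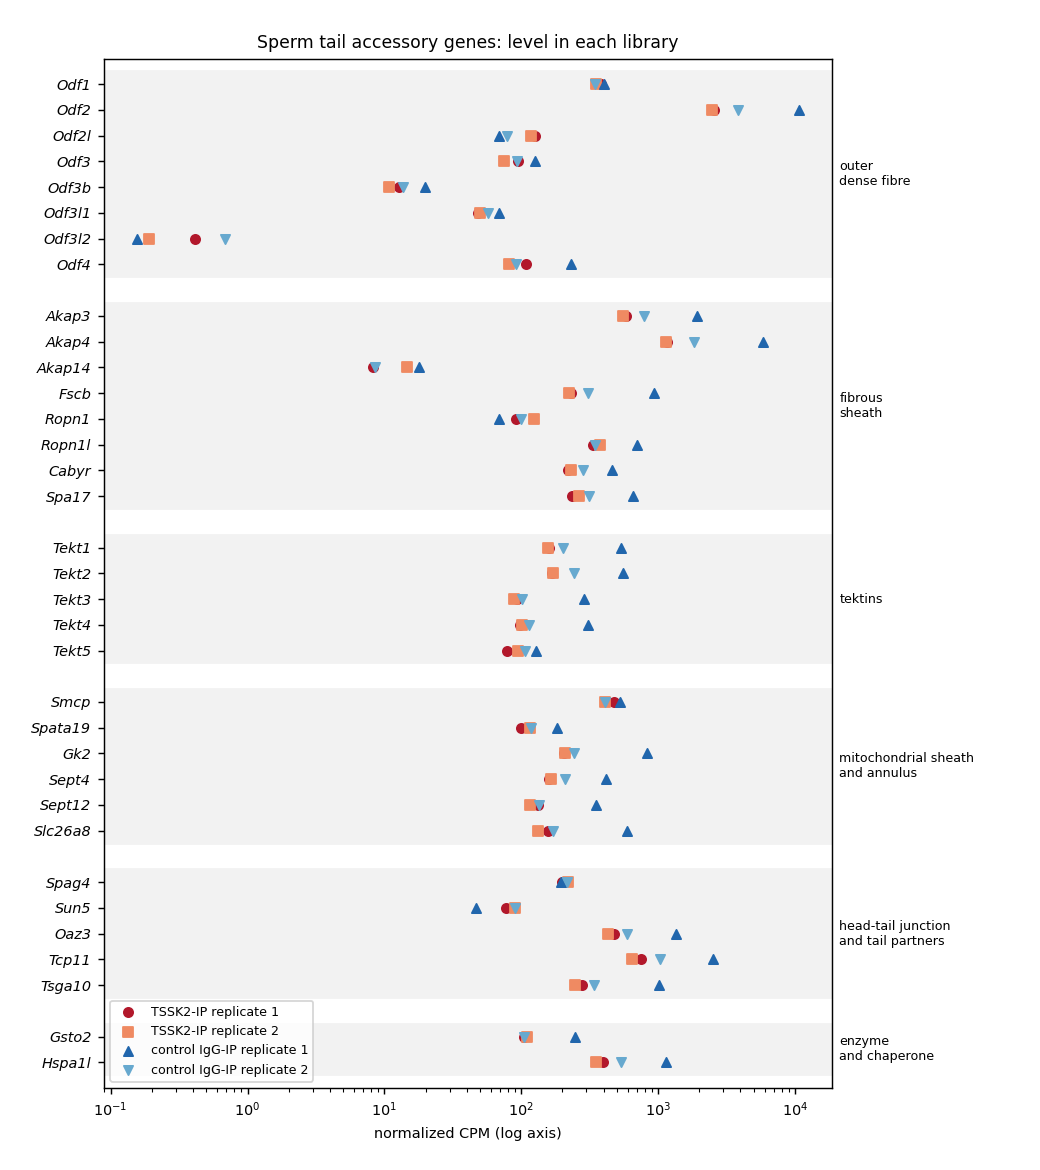
Level of each of the 34 genes in each of the 4 libraries, in normalized CPM on a log axis, grouped by structure. For most genes control IgG-IP replicate 1 (dark blue triangles) lies far to the right, while control IgG-IP replicate 2 (light blue triangles) lies close to the TSSK2-IP libraries (red circles and orange squares).

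The members' summed level was 10306 and 9954 CPM in TSSK2-IP, 33508 CPM in control IgG-IP replicate 1 and 13460 CPM in control IgG-IP replicate 2. As a share of all counts they took 1.20% and 1.16% of the TSSK2-IP libraries and 2.18% and 1.49% of the control libraries. The control replicates differed by a median of 2.16-fold over the members, with replicate 1 higher for 29 of 33, whereas over all genes the median ratio of replicate 1 to replicate 2 was 0.894. The size of such ratios depends on the normalization, for members and all genes alike. The TMM factors were 0.652 for control replicate 1 and 1.117 for replicate 2. Upper-quartile factors, 0.7486 and 0.9605, give a smaller ratio, and DESeq2's, 0.601 and 1.11, a larger one. With TMM factors, replicate 1 was at least 2-fold above replicate 2 for 20 members, or 60.6%, against 16.8% of all genes. Over all genes the ratio of replicate 1 to replicate 2 rose with the mean level (Spearman's rho = 0.63, 14700 genes). The members are mostly abundant, with 28 of 33 at or above percentile 90 of the level per kilobase in TSSK2-IP. The excess was therefore not shown to be particular to the members. None of the 33 tested members differed 2-fold between the TSSK2-IP libraries. The difference between the groups therefore depended on which control was used, and the median of the members was -1.34 against replicate 1 alone and -0.22 against replicate 2 alone.

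Of the outer dense fibre genes, 8 were listed and 7 tested, with a median log2 fold change of -0.39. Odf1 encodes a major cysteine-rich protein of the fibres and lies on chromosome 15 from 38219203 to 38226735 (plus strand). Its level was 385 and 354 CPM in TSSK2-IP and 400 and 348 CPM in control IgG-IP, so the groups overlapped. The log2 fold change of Odf1 was -0.02 with a standard error (SE) of 0.60. Odf2, which encodes another main fibre protein that is also found at centrosomes, lies on chromosome 2 from 29889221 to 29931746 (plus strand) and was the most abundant member by CPM. It was at 2546 and 2484 CPM in TSSK2-IP and at 10705 and 3830 CPM in control IgG-IP. Both TSSK2-IP libraries of Odf2 were below both controls, but the controls differed 2.79-fold from each other, more than the TSSK2-IP libraries differed from control replicate 2. The log2 fold change of Odf2 was -1.53 with an SE of 1.34 (adjusted p = 0.616, edgeR).

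Odf2l, a relative of Odf2 whose product is found at the centriole and basal body, was the member with the highest log2 fold change. It lies on chromosome 3 from 145118588 to 145153915 (plus strand). Its level was 126 and 118 CPM in TSSK2-IP and 68.8 and 78.1 CPM in control IgG-IP, so the groups did not overlap and the controls differed little. The log2 fold change of Odf2l was 0.73 with an SE of 0.43 (adjusted p = 0.462, edgeR). It was between 0.67 and 0.77 when any 1 library was left out. The other tested genes of this group, Odf3, Odf3b, Odf3l1 and Odf4, had log2 fold changes from -0.77 to -0.36, and the TSSK2-IP libraries lay below both controls for Odf3b and Odf3l1 but not for Odf3 and Odf4. In the fit without control replicate 1, Odf2 was at -0.55 on the log2 scale, Odf1 at 0.14 and these other genes between -0.18 and 0.12.

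Among the 8 fibrous sheath genes the median was -0.84 on the log2 scale, and 7 of 8 values were below 0. Akap4 encodes the most abundant protein of the sheath, an anchor for protein kinase A, and lies on the X chromosome from 7067519 to 7078609 (plus strand). Its level was 1164 and 1146 CPM in TSSK2-IP and 5879 and 1823 CPM in control IgG-IP. Both TSSK2-IP libraries were below both controls, and the controls were 3.23-fold apart. Akap4 had the lowest log2 fold change of the members, -1.74 with an SE of 1.11 (adjusted p = 0.492, edgeR). Without control IgG-IP replicate 1 it was -0.60.

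Akap3, the partner of Akap4 that is built into the sheath earlier, was at 582 and 551 CPM in TSSK2-IP and at 1925 and 787 CPM in control IgG-IP. Fscb, which encodes a sheath protein that binds CABYR, was at 229 and 223 CPM in TSSK2-IP and at 932 and 310 CPM in control IgG-IP. In both genes the TSSK2-IP libraries agreed to within 1.06-fold and lay below both controls, of which replicate 1 was the higher. The log2 fold changes were -1.26 (SE 0.82) for Akap3 and -1.46 (SE 0.70) for Fscb.

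The remaining sheath genes encode small adaptor proteins that dock on such anchors, together with the calcium-binding protein CABYR. Spa17 was at 237 and 266 CPM in TSSK2-IP and at 656 and 315 CPM in control IgG-IP, with both TSSK2-IP libraries below both controls. Ropn1l was at 335 and 376 CPM in TSSK2-IP and at 705 and 348 CPM in control IgG-IP, and its groups overlapped. Ropn1, which encodes ropporin and is a close relative of Ropn1l, was at 91.0 and 124 CPM in TSSK2-IP and at 69.3 and 99.9 CPM in control IgG-IP. It was the only sheath gene with a log2 fold change above 0, at 0.34 (SE 0.45), with overlapping groups. Akap14, a further anchor, had the largest difference between the TSSK2-IP libraries among the members tested, 1.77-fold, at 8.29 and 14.7 CPM beside 17.8 and 8.50 CPM in control IgG-IP. These values rest on between 37 and 114 counts. Cabyr had a log2 fold change of -0.73, and its TSSK2-IP libraries were below both controls. The sheath genes in the fit without control replicate 1 had log2 fold changes of -0.42 for Akap3, -0.40 for Fscb, -0.28 for Cabyr, -0.27 for Spa17, 0.088 for Ropn1l, 0.16 for Ropn1 and 0.49 for Akap14.

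The 5 tektins encode filament proteins that line the inside of the doublet microtubules of the flagellum. For all 5, both TSSK2-IP libraries lay below both controls (21.6% of all genes), and the median log2 fold change was -1.09. Tekt1 was at 160 and 156 CPM in TSSK2-IP and at 536 and 204 CPM in control IgG-IP. Tekt2 was at 169 and 172 CPM in TSSK2-IP and at 556 and 242 CPM in control IgG-IP. These genes had nearly the same pattern, with log2 fold changes of -1.22 (SE 0.61) and -1.23 (SE 0.61).

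Tekt3 was at 93.3 and 89.1 CPM in TSSK2-IP and at 287 and 101 CPM in control IgG-IP. Tekt4 was at 97.4 and 102 CPM in TSSK2-IP and at 307 and 114 CPM in control IgG-IP. Control IgG-IP replicate 2 was close to the TSSK2-IP libraries in both, with log2 fold changes of -1.09 (SE 0.55) and -1.08 (SE 0.55). Tekt5 differed in that its controls were only 1.20-fold apart, at 129 and 108 CPM, above 79.4 and 95.5 CPM in TSSK2-IP. Its log2 fold change, -0.44 (SE 0.44), was the nearest to 0 among the tektins. Leaving out control replicate 1 gave -0.31 for Tekt1, -0.45 for Tekt2, -0.096 for Tekt3, -0.14 for Tekt4 and -0.24 for Tekt5. None of the 5 was called (smallest adjusted p = 0.396, edgeR).

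Smcp encodes a cysteine-rich protein of the capsule around the midpiece mitochondria, and in TSSK2-IP it was the member with the highest level per length. It lies on chromosome 3 from 92583867 to 92588997 (minus strand), with 3 exons. The stretch below is shown because it carries the repeated run of cysteine, cysteine and proline codons for which the protein is known. It holds bases 40 to 270 of the 432-base coding sequence, stop codon included, 5′ to 3′, as given by GENCODE vM21, and the capitals mark the 9 runs of that triplet of codons. The whole coding sequence holds 143 codons, of which 32 encode cysteine.
Smcp: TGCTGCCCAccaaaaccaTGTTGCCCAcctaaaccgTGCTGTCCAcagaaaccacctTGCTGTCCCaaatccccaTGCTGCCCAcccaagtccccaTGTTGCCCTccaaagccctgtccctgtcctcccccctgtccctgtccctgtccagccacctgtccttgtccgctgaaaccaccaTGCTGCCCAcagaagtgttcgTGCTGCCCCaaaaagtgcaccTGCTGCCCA
Its level was 479 and 406 CPM in TSSK2-IP and 526 and 412 CPM in control IgG-IP, with overlapping groups. The log2 fold change of Smcp was -0.08 with an SE of 0.64. The controls of Smcp differed little, 1.28-fold, as did those of Odf1 (1.15-fold) and of other members, such as Odf3l1 (1.19-fold) and Tekt5 (1.20-fold).

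The other genes of the mitochondrial sheath and annulus had lower values in TSSK2-IP than in both controls (21.6% of all genes). The median of all 6 was -0.95. Spata19, which encodes a mitochondrial protein of the midpiece, was at 100 and 117 CPM in TSSK2-IP and at 183 and 118 CPM in control IgG-IP. The nearest libraries of the groups thus differed by about 1 CPM, and the log2 fold change was -0.47 (SE 0.48). Gk2 encodes a testis-specific glycerol kinase needed for the mitochondrial sheath, and with Slc26a8 it showed the largest difference between the controls among the members tested, 3.43-fold in both. Its level was 206 and 209 CPM in TSSK2-IP and 831 and 242 CPM in control IgG-IP. The log2 fold change of Gk2 was -1.37 (SE 0.69) with all libraries and -0.17 without control IgG-IP replicate 1.

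Slc26a8, an anion transporter of the annulus, had the smallest p of the members. Its level was 157 and 132 CPM in TSSK2-IP and 589 and 172 CPM in control IgG-IP, with a log2 fold change of -1.39 (SE 0.65). Without control IgG-IP replicate 1 it was -0.19. The septin genes of the annulus, Sept4 and Sept12, had log2 fold changes of -0.93 and -0.97. Their controls were 1.98-fold and 2.62-fold apart, again with replicate 1 the higher. Without that library the log2 fold change was -0.30 for Sept4, -0.056 for Sept12, -0.062 for Spata19 and 0.16 for Smcp.

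At the head-tail junction and among tail protein partners, 3 of 5 genes were lower in TSSK2-IP than in both controls (21.6% of all genes). The other 2 had overlapping groups. Spag4 encodes a protein of the spermatid nuclear envelope and manchette that binds ODF1, and it was at 198 and 219 CPM in TSSK2-IP and at 194 and 215 CPM in control IgG-IP. All 4 libraries thus lay close together, with a log2 fold change of 0.03 (SE 0.52). Sun5, which anchors the tail to the nucleus, was at 77.7 and 89.8 CPM in TSSK2-IP and at 46.7 and 89.4 CPM in control IgG-IP. It was the tested member with the lowest ratio of control replicate 1 to replicate 2, 0.522, and its log2 fold change was 0.30 (SE 0.45). Tsga10, which encodes a protein of the midpiece and centriole, was at 276 and 245 CPM in TSSK2-IP and at 1016 and 339 CPM in control IgG-IP, with a log2 fold change of -1.38 (SE 0.71). Tcp11, a gene needed for sperm motility, and Oaz3, an inhibitor of ornithine decarboxylase, had log2 fold changes of -1.36 and -1.09. When control replicate 1 was left out, the fit gave -0.32 for Tsga10, -0.52 for Tcp11, -0.33 for Oaz3, -0.036 for Sun5 and 0.012 for Spag4.

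The glutathione transferase gene Gsto2 and the spermatid HSP70 gene Hspa1l had log2 fold changes of -0.71 and -1.17. The groups overlapped for Gsto2, and Hspa1l was below both controls. Their values were 0.086 and -0.46 in the fit without control replicate 1.

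Promoter windows were available for 28 of the 34 genes from RefSeq on GRCm38.p6. The cAMP response element, TGACGTCA, the site bound by CREM in spermatids, was searched on both strands in the 250 bases before the start. It was found in 1 of 28 members, Spag4, and in 1.77% of the 27025 genes with a window. With 1 base of the element left free on either side (TGACGTNA or TNACGTCA, which overlap the full element), 2 of 28 members, Spag4 and Hspa1l, and 2.92% of all genes held it. Both windows are shown because they hold the only matches among the members, with the 8 bases of the match in capitals. The match of Spag4 begins 37 bases and that of Hspa1l 71 bases before the RefSeq start. For Spag4, GENCODE vM21 places the start of the gene further upstream, at 156065175, so by that annotation the match lies inside the gene. The Spag4 window is chr2:156065150-156065209 and the Hspa1l window chr17:34972606-34972665, both on the plus strand.
Spag4: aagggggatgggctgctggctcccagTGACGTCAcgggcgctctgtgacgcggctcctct
Hspa1l: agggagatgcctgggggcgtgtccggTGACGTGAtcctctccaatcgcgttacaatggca
Spag4 and Hspa1l differed in their values, with log2 fold changes of 0.03 and -1.17. A match to these letters is a description of the window and not of binding.

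**Figure D2:**
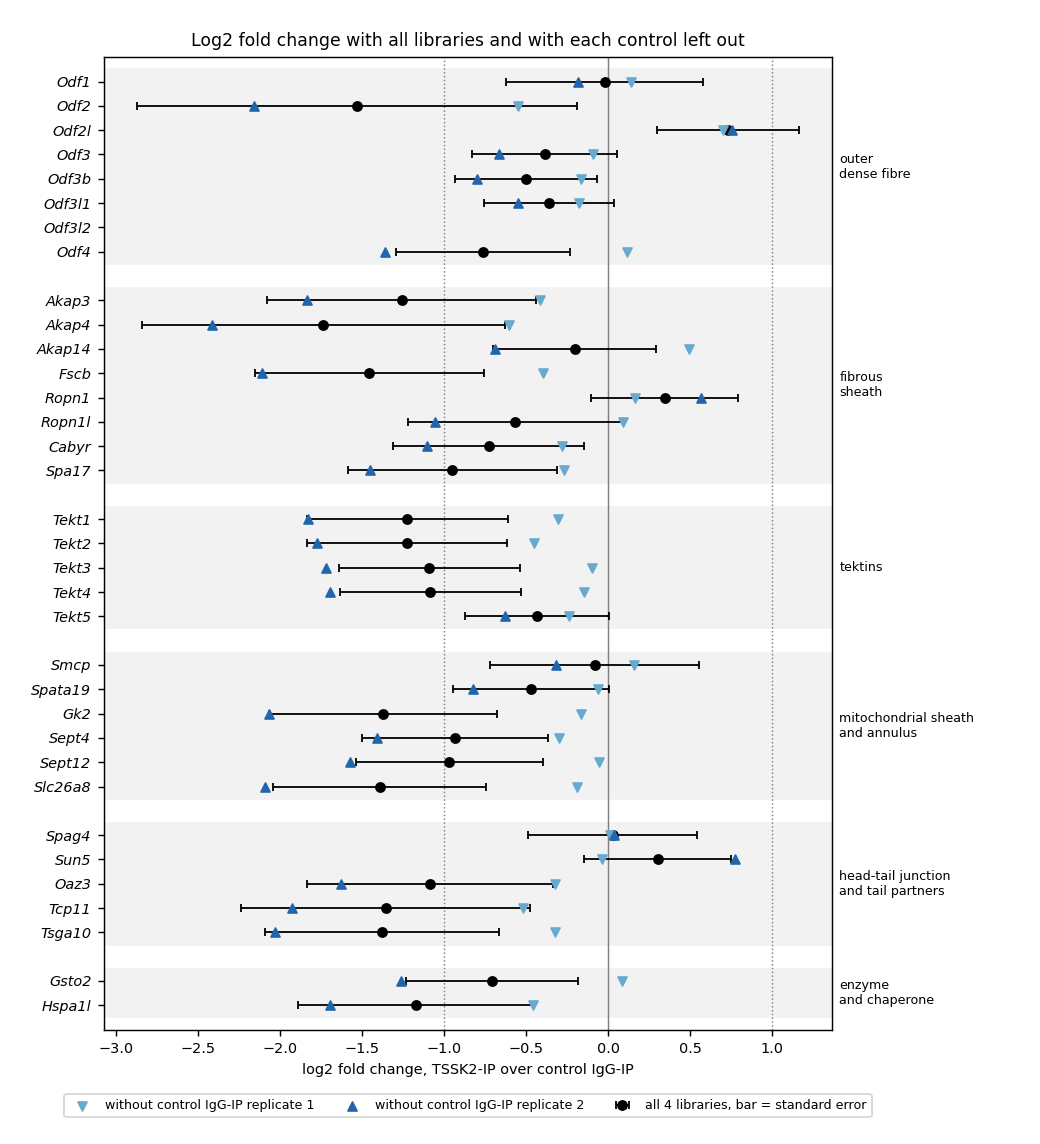
Log2 fold change of TSSK2-IP over control IgG-IP for each gene with all 4 libraries (black circles, bars show 1 standard error), without control IgG-IP replicate 1 (light blue) and without control IgG-IP replicate 2 (dark blue). Dotted lines mark -1 and 1. Most light blue points lie near 0 and most dark blue points below -1.

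Leaving out each control showed how far the members depended on it. Without control IgG-IP replicate 2, 21 of 33 members were called lower (17.4% of all genes were), with a median of -1.41, and 0 were called higher (17.9% of all genes). The 21 included 4 of the 5 tektins, Akap3, Akap4, Fscb and Odf2. At an unadjusted p under 0.05, 28 members had a lower value in that fit (28.4% of all genes) and 3, Odf2l, Ropn1 and Sun5, a higher one (26.3% of all genes). Without control IgG-IP replicate 1, 0 were called in either direction, with a median of -0.17 (5.38% of all genes were called higher and 2.56% lower). In that fit 13 members had a lower value (11.3% of all genes) and 1 a higher value (17.4% of all genes) at an unadjusted p under 0.05. With the adjusted p of edgeR limited to 0.05, 8 members had a lower value (5.12% of all genes) and 1 a higher value (11.7% of all genes), all under 2-fold. The lower ones were Akap4 (-0.60), Odf2 (-0.55), Tcp11 (-0.52), Hspa1l (-0.46), Tekt2 (-0.45), Akap3 (-0.42), Fscb (-0.40) and Oaz3 (-0.33), and the higher one was Odf2l (0.70). In each of these fits the lone control was assumed to vary as the TSSK2-IP pair did.

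**Figure D3:**
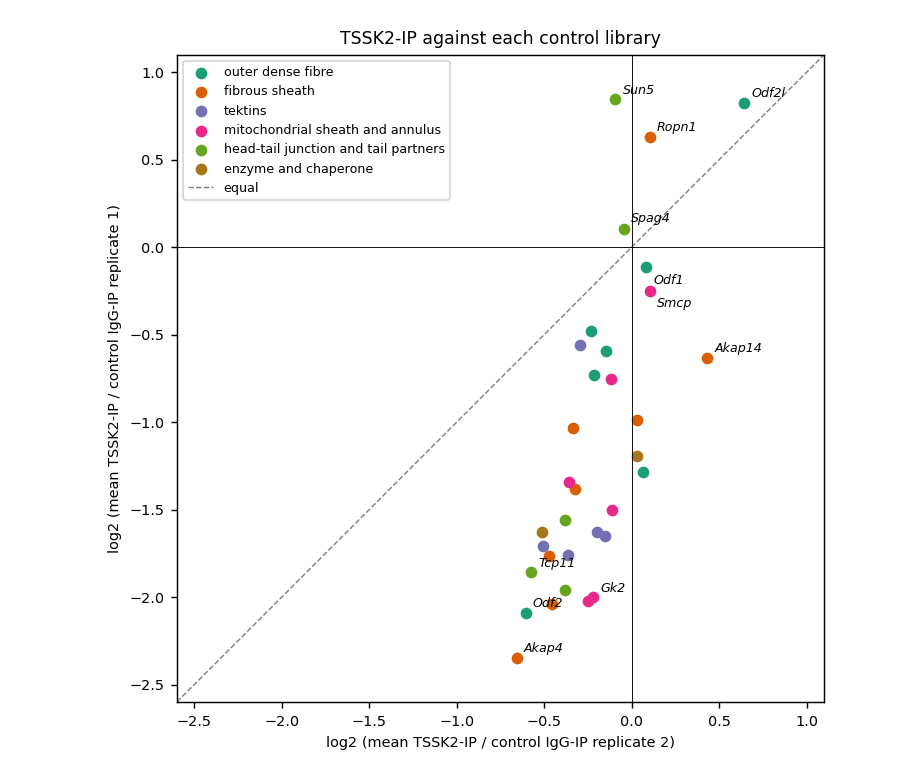
Log2 ratio of the mean TSSK2-IP level to control IgG-IP replicate 2 (x axis) and to replicate 1 (y axis) for the 33 genes tested, coloured by structure. The dashed line marks equal ratios, and both axes share the TSSK2-IP values. Most points lie well below the line, while Sun5, Ropn1, Spag4 and Odf2l lie above it.

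Against control IgG-IP replicate 2 alone, both TSSK2-IP libraries were lower for 22 members (40.7% of all genes), higher for 2 members, Odf1 and Odf2l (40.4% of all genes), and on both sides of it for 9. The log2 ratios to replicate 2 ranged from -0.66 for Akap4 to 0.64 for Odf2l.

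The members' levels can be compared per kilobase of merged exon. In TSSK2-IP, Smcp was highest at 485 CPM per kilobase, followed by Akap4 at 382, Ropn1l at 372, Odf1 at 334, Odf2 at 254 and Spa17 at 237. The lowest tested members were Akap14 at 6.40, Odf3b at 6.70 and Odf2l at 10.9. The TSSK2-IP libraries of Akap4 lay within the range of Ropn1l (350 to 393), those of Odf2 overlapped with those of Spa17 (223 to 251), and those of Odf3b lay within the range of Akap14 (4.63 to 8.18), so these orders are not resolved. Odf1, at most 348, lay just below Ropn1l. Of the 33 tested, 28 lay at or above percentile 90 of all genes tested in TSSK2-IP, and the lowest, Akap14, lay at percentile 59.9. In control IgG-IP replicate 1 the level per kilobase was 1942 for Akap4, 1079 for Odf2, 737 for Ropn1l, 660 for Tcp11, 618 for Spa17, 610 for Akap3 and 576 for Smcp. In control IgG-IP replicate 2 it was 602 for Akap4, 451 for Smcp, 386 for Odf2, 364 for Ropn1l, 297 for Spa17, 271 for Tcp11 and 250 for Akap3. Akap4 was thus above Smcp in both controls, and Odf2, Ropn1l, Tcp11, Spa17 and Akap3 in replicate 1 only. Exons of all transcripts are merged, so a gene with many transcripts, such as Odf2 with 25, has a long merged length and a lower level per kilobase.

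Across the 33 members, the log2 fold change was lower where control IgG-IP replicate 1 was further above replicate 2 (Spearman's rho = -0.91, Pearson's r = -0.91), and both quantities hold the control values. Over all genes the same rho was -0.51. The log2 fold change also had a rho of -0.60 with coding length and -0.69 with the mean level (-0.21 over all genes). The ratio of the controls had a rho of 0.54 with coding length and 0.50 with the mean level (0.63 over all genes). With merged exon length, the log2 fold change had a rho of -0.45 and an r of -0.11 in the members, beside a rho of -0.06 and an r of -0.03 over all genes. These are correlations across genes, which are not independent replicates, all from the same 4 libraries.

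A further 40 genes of the same structures, listed by their known products, were all tested. Of these, 1 was called higher, Sept2 (0.693% of all genes), and 0 lower (0% of all genes). At an unadjusted p under 0.05, 2 had a higher (8.34% of all genes) and 4 a lower value (4.89%) (edgeR). The median log2 fold change was -0.50, and -0.13 without control IgG-IP replicate 1. Both TSSK2-IP libraries lay below both controls for 21 (21.6% of all genes) and above both for 7 (27.3%). Sept2 encodes a septin with roles in many cell types besides the annulus. The symbol stands for 2 identifiers in the table, of which the one with counts was used. It had 199 and 225 counts in TSSK2-IP and 31 and 31 in control IgG-IP, or 41.3 and 42.8 CPM against 4.84 and 7.12 CPM. The groups were well separated, with a log2 fold change of 2.82 (SE 0.44, adjusted p = 0.00912, edgeR). With upper-quartile normalization the adjusted p was 0.0553, and without TSSK2-IP replicate 1 or replicate 2 it was 0.181 and 0.157, so the call was lost in these fits while the log2 fold change stayed between 2.61 and 3.05 in the fits without 1 library.

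By structure, the other fibrous sheath genes had a median of -1.03 (12 genes), the other mitochondrial sheath genes -0.26 (10 genes), the other annulus genes 0.06 (8 genes) and the other head-tail junction genes -0.57 (10 genes). In the fibrous sheath the smallest p in each direction belonged to Rhpn1, which encodes a sheath protein that binds ropporin (-1.41), the aldolase retrogene Aldoart1 (-1.35), Calml4 (0.38) and Fsip1 (0.07). In the mitochondrial sheath they belonged to Pld6, a phospholipase D family protein of the mitochondrial surface (1.24), the ATP/ADP carrier Slc25a31 (0.53), Spata18 (-1.41) and the outer membrane channel Vdac3 (-0.88). Pld6 was at 43.3 and 37.5 CPM in TSSK2-IP and at 17.6 and 16.5 CPM in control IgG-IP, with groups that did not overlap. Its adjusted p was 0.236 (edgeR), and it was called when either control library was left out. In the annulus the genes were Sept2, Sept7 (0.53), Dnajb13 (-1.22) and Ccdc33 (-0.75), and at the junction Ccdc42 (-1.15) and Pmfbp1 (-1.34), with no gene above 0.

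**Figure D4:**
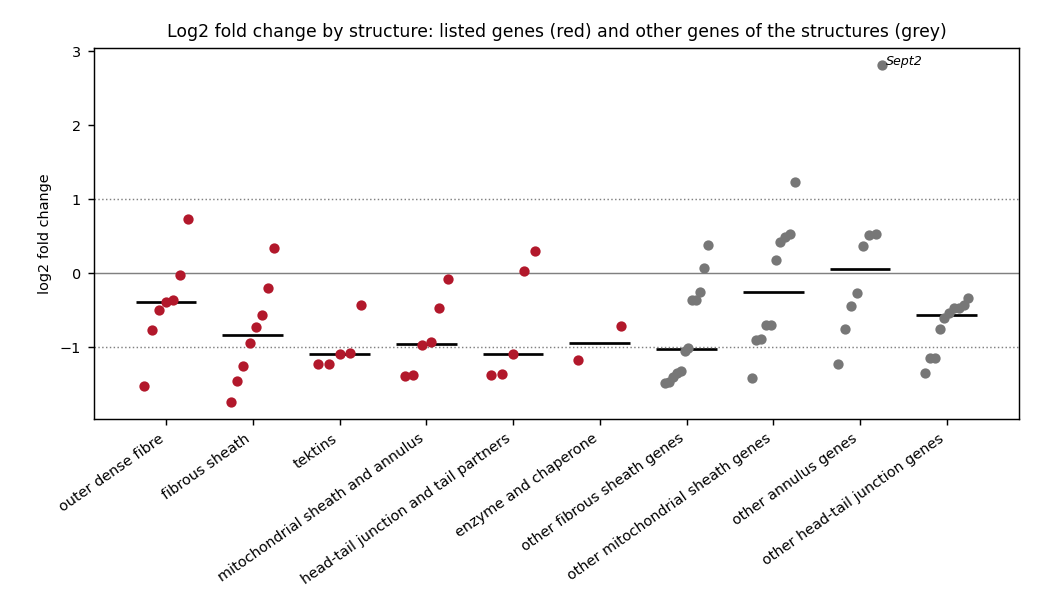
Log2 fold change of the listed genes (red) and of the other genes of the same structures (grey), 1 point per gene and a black line at each median. Dotted lines mark -1 and 1. Sept2, at 2.82, is the highest point, and the other annulus genes are the only set with a median above 0.

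Markers of spermatids, the cells that make these proteins, were present in all libraries. Like the members, spermatid markers had their highest sum in control IgG-IP replicate 1, and so did spermatocyte markers. The summed level of 6 elongating spermatid markers was 3535 and 3146 CPM in TSSK2-IP and 6229 and 3997 CPM in control IgG-IP. Among these 6, Gapdhs is also listed with the other fibrous sheath genes, so the sets are not separate. Gapdhs was at 769 and 672 CPM in TSSK2-IP and at 2002 and 993 CPM in control IgG-IP. For 6 round spermatid markers it was 502 and 569 CPM in TSSK2-IP and 720 and 541 CPM in control IgG-IP. The 7 spermatocyte markers summed to 1041 and 955 CPM in TSSK2-IP and to 1164 and 982 CPM in control IgG-IP. Sertoli cell markers summed to 42.9 and 24.7 CPM in TSSK2-IP and to 12.0 and 28.5 CPM in control IgG-IP, and Leydig cell, myoid cell and macrophage markers to at most 35.4 CPM, with Insl3 at 0 in a library. No marker was called. The median log2 fold change was -0.18 over the elongating and 0.02 over the round spermatid markers, beside -0.93 over the members. Fewer spermatids of late steps and less RNA per spermatid cannot be told apart in such libraries, and the part of cell makeup in the members' values was not tested. Reads counted for Lars2 made up between 5.80% and 14.4% of the counts of a library, with both extremes in the controls. Whether these reads came from Lars2 mRNA was not tested. Leaving Lars2 and the mitochondrial genes out gave a members' median of -0.94.

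Among the members, 6 share at least 150 bases at 97% identity or more with another gene, in each case a gene that overlaps it: Spa17, Tekt2, Oaz3, Tcp11, Tsga10 and Hspa1l. The overlap is on the same strand for Tcp11 and on the opposite strand for the others, and the strand setting of the counting is not given in the sources used here, so counts of these 6 are uncertain to that extent.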

How the data were processed

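Per the submitters' processing notes, the authors used Trimmomatic 0.39 for trimming, STAR 2.7.10a for mapping to the build GRCm38 and featureCounts 2.0.3 for counting per gene. They deposited raw counts without normalization. Directional libraries without rRNA removal were made, and the strand setting of the counting is not given in the sources used here. Gene names, exons and coding lengths were taken from GENCODE vM21, in which 21817 of the 21936 identifiers were found and 119 were not.

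Counts were fitted with edgeR 4.0.16 in R 4.3.3 (filterByExpr, 14722 genes, TMM, glmQLFit, glmQLFTest, Benjamini-Hochberg adjustment over all genes tested). The design held the group only. The standard error is the log2 fold change, without its sign, divided by the square root of F. The common dispersion was 0.135. The fit was also run on simulated counts, with the outcome not reported here. Overlaps were searched with BLAST+ 2.17.0. The alternatives were DESeq2 1.42.0, its size factors, upper-quartile factors, other filters on low counts, the replicate number as a block, removal of mitochondrial genes and Lars2, and leaving out each library.

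The members, the lists of other genes and markers, and the tests were chosen with earlier results of these data known. Values in every library are given for the 6 members with the largest and the 6 with the smallest log2 fold change, the 6 with the highest level per kilobase in TSSK2-IP, the genes with the largest difference between replicates of each group, and Odf1, Odf2, Akap3, Akap4, Smcp, Spata19 and the tektins. Of the other genes of the structures, the 2 with the smallest p in each direction are named. The DDX4-IP libraries and the mass spectrometry were not analysed here.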

Additional observations from a re-analysis of the deposited data

How the results depend on the processing

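The count of members called stayed at 0 in both directions in every alternative except without control IgG-IP replicate 2. When 1 library was left out, the members called lower ranged from 0 to 21, the other genes of the structures called lower from 0 to 19 and called higher from 0 to 3, and the members' median from -1.41 to -0.17. The largest of these counts all came from the fit without control IgG-IP replicate 2. In that fit 17.4% of all genes were called lower and 17.9% higher. With upper-quartile factors 0 of the other genes were called higher. The sign of the log2 fold change turned in members near 0: Odf1 was 0.043 with at least 10 counts in every library, and Spag4 was -0.10 with DESeq2's size factors, -0.016 with upper-quartile factors and -0.045 with DESeq2. When 1 library was left out, it ranged from -0.19 to 0.14 for Odf1, from -1.36 to 0.12 for Odf4, from -0.70 to 0.49 for Akap14, from -1.06 to 0.088 for Ropn1l, from -0.32 to 0.16 for Smcp, from -0.056 to 0.087 for Spag4, from -0.036 to 0.78 for Sun5 and from -1.26 to 0.086 for Gsto2. The cause was not tested. DESeq2's size factors moved the median of all genes from -0.02 to -0.14, and DESeq2 to -0.20.

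With the replicate number as a block, 0 members were called and their median was -0.81. Libraries of the same number had deviations that correlated at r = 0.126 over all genes tested, from only 2 pairs, and nothing in the labels says what a number marks, so the numbers were not taken to pair the libraries. The block gave 274 genes called higher over all genes, beside 102 without it. That count was 20 with upper-quartile factors, 29 with at least 10 counts in every library, 283 without a filter (with 24 lower) and 160 with DESeq2, and from 23 to 2755 when 1 library was left out, with 0 to 2688 called lower. Depth left Odf3l2 at 3 counts or fewer in each library and untested.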
